A study of Macaca mulatta with 20 samples.

Results

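The proteasome genes of whole blood were followed in rhesus macaques before and after irradiation of the thorax. They were taken as all genes whose symbol starts with PSM, 1 of the letters A to G and a number, and which had a probe well above background on at least 5 of the 20 arrays. Of 52 such symbols with 73 probes on the array, 50 passed, among 15929 gene names that passed in all. Of the 50, 47 code for subunits, activators, an inhibitor or assembly factors of the proteasome. The other 3 members, PSMC3IP, PSMD5-AS1 and PSMG3-AS1, share only the start of the symbol and are described apart. PSMA8, a testis form of an alpha subunit, and PSMA3-AS1 did not pass. Each gene was read from its probe with the highest mean signal, so that the choice used brightness and no comparison between groups. A total of 46 of the 47 genes were well above background on all 20 arrays. The exception was PSMB11, the catalytic subunit of the thymus form, which was above background on 6 arrays, of which 3 were day 2 arrays and 1 came from each other group.

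The proteasome is the protease that degrades ubiquitin-tagged proteins in the cytosol and nucleus. Its core particle (20S) is a barrel of outer alpha rings, which gate the entry, and inner beta rings, which hold the catalytic sites. The regulatory particle (19S) caps the barrel, and the ATPases of its base unfold substrates while its lid removes ubiquitin. In leukocytes and under interferon the constitutive catalytic subunits PSMB5, PSMB6 and PSMB7 are replaced by PSMB8, PSMB9 and PSMB10, which form the immunoproteasome. The activator PA28, a ring of PSME1 and PSME2, is also induced by interferon, and the peptides made in this way are loaded onto MHC class I molecules.

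Whole blood was collected from rhesus macaques before irradiation and at days 2, 5 and 30 after a single exposure of the thorax to 10 Gy of X-rays. Each group held 5 arrays, numbered 1 to 5, and the pre-irradiation group was the only control. The study's methods give the animals as males of Chinese origin that received no mitigator and pair each irradiated sample with a matched control. The labels name 8 animals and do not tie arrays to animals, and the methods state that 1 sample was pooled from different animals without saying which. Globin transcripts were depleted, and the RNA was labelled with Cy3 and hybridized to human arrays, so that the match of a human probe to the rhesus transcript differs between genes. Values are therefore compared within a probe, never between probes.

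A level here is the log2 processed signal of a probe minus the 75th percentile of its array, and a change is the difference of 2 group means of such levels, paired by replicate number. The share of spots well above background ran from 50.9% to 67.3% over the arrays and was highest on day 5 replicate 3. Markers of T and NK cells, B cells, monocytes, neutrophils, platelets and erythroid cells were above background on all 20 arrays where they were measured, as whole blood holds these cells. Listed markers without a probe that passed were MS4A1 and PAX5 (B cells), LYZ (monocytes), FCGR3B (neutrophils), GP6 (platelets) and GYPB (erythroid cells). Of 19961 probes tested in limma, 11 were called at day 2, 0 at day 5 and 4 at day 30 against pre-irradiation, at p under 0.005 and a false discovery rate under 10%. The arrays lay on 5 slides with 1 array of each group on each slide, and a group always had the same position on the slide, so that position and group cannot be told apart.

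The catalytic subunits carry the contrast between the constitutive and the immune form, and the probes that read the pairs PSMB5 with PSMB8 and PSMB6 with PSMB9 are shown, 5′ to 3′. Capitals mark a run of the greatest length common to both probes of a pair. It was 5 bases for the first pair, where other runs of that length are left unmarked, and 8 bases for the second. These runs describe the probes and not how alike the partner genes are.
PSMB5: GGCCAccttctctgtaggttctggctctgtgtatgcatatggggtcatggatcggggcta
PSMB8: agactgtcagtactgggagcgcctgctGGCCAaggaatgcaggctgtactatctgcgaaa
PSMB6: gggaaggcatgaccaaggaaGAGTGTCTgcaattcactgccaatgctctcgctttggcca
PSMB9: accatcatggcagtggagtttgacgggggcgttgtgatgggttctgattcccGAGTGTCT
The PSMB5 probe lies at chr14:23495485-23495544 on the minus strand of the human build hg19, which the array annotation uses, and the PSMB8 probe at chr6:32810023-32810490 on the minus strand, across an exon junction. The PSMB6 probe lies at chr17:4701404-4701589 on the plus strand, also across a junction, and the PSMB9 probe at chr6:32823918-32823977 on the plus strand. The probes of PSMB8 and PSMB9, neighbours in the MHC class II region, were 13428 bases apart. None of the 47 chosen probes shared a run of 20 bases with a probe of another gene.

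No proteasome gene was called at any day against pre-irradiation in limma, at p under 0.005 and a false discovery rate under 10%. Of all probes tested, 0.0551% were called at day 2, 0% at day 5 and 0.02% at day 30. The smallest adjusted p of a proteasome gene was 0.316 at day 2, 0.427 at day 5 and 0.184 at day 30. At an unadjusted p under 0.05 there was 1 gene of 47 (2.13%) at day 2, where 14.8% of all probes reached that level. There was again 1 gene (2.13%) at day 5, against 11.4% of all probes, and 4 genes (8.51%) at day 30, against 17.5%. The shares of the proteasome genes were below the background on each day.

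The median change of the 47 genes was 0.04 at day 2, 0.05 at day 5 and 0.10 at day 30 on the log2 scale, beside −0.02, 0.02 and 0.01 over all probes. The SD over the 5 pairs of the median in each pair was 0.14, 0.22 and 0.15, larger than each of these medians. With 1 replicate left out the median ran from −0.04 to 0.06 at day 2, from −0.02 to 0.12 at day 5, with the lowest without replicate 5 and the highest without replicate 3, and from 0.06 to 0.14 at day 30. Within slides, the median difference of the genes lay between −0.16 and 0.27 at day 2, between −0.05 and 0.17 at day 5 and between −0.14 and 0.37 at day 30, and it was above 0 on 3 of 5 slides each time. The 75th percentile left 30 of 47 genes (63.8%) above pre-irradiation at day 2, 33 (70.2%) at day 5 and 34 (72.3%) at day 30, where 47%, 53.5% and 50.6% of all probes lay above. None of these directions held under every scaling and background correction.

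At day 2 the median was −0.37 with normexp background correction, an alternative to the scanner's own, with 5 of 47 genes above, beside a median of 0.12 over all probes. Over the 4991 brightest probes the day 2 median with normexp was −0.40. Quantile normalization gave −0.04 at day 2, with 18 genes above, beside −0.04 over all probes. At day 5 the median was −0.08 when each array was scaled by its median, with 11 genes above, beside −0.11 over all probes. At day 30 it was −0.02 with normexp, with 23 genes above, beside 0.11 over all probes, and 0.15 with median scaling, with 38 genes above, beside 0.05. The brightest probes had a day 30 median of −0.04 with normexp. No common direction of the proteasome genes can therefore be read from any of the 3 days. The 3 comparisons share the pre-irradiation arrays, so that their directions are not separate evidence. In bulk blood, fewer cells of a type and less RNA per cell cannot be told apart.

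For most of these genes the 95% limma interval was narrow at days 2 and 5 with the scanner's background correction. At day 2, the interval of 32 of the 47 genes (68.1%) lay within a 1.5-fold change either way, against 36.9% of all probes. At day 5 it did for 31 genes (66.0%) against 39.2%, and at day 30 for 23 genes (48.9%) against 24.1%. An interval within a 2-fold change either way was found for 46, 46 and 45 genes, against 80.1%, 82.5% and 74.7% of all probes. Among the 15339 probes that were above background on all 20 arrays, the shares within 1.5-fold were 43.1%, 47.1% and 27.6%, and among the 46 proteasome genes of that kind they were 69.6%, 67.4% and 50%. With normexp the intervals of 10, 37 and 42 genes lay within 1.5-fold, against 21.9%, 83.7% and 67.2% of all probes, so that the intervals and their place beside all probes depended on the background correction. With median scaling 8 genes had such an interval at day 5, against 14% of all probes. The median size of the change, whatever its sign, was 0.09, 0.10 and 0.16 log2 units for the genes and 0.21, 0.19 and 0.25 over all probes. The widest limits were those of PSMB9 at day 2, up to 1.26, and of PSMD10 at day 30, up to 1.36. The plot of changes by gene shows the interval of each gene on each day.

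**Figure D1:**
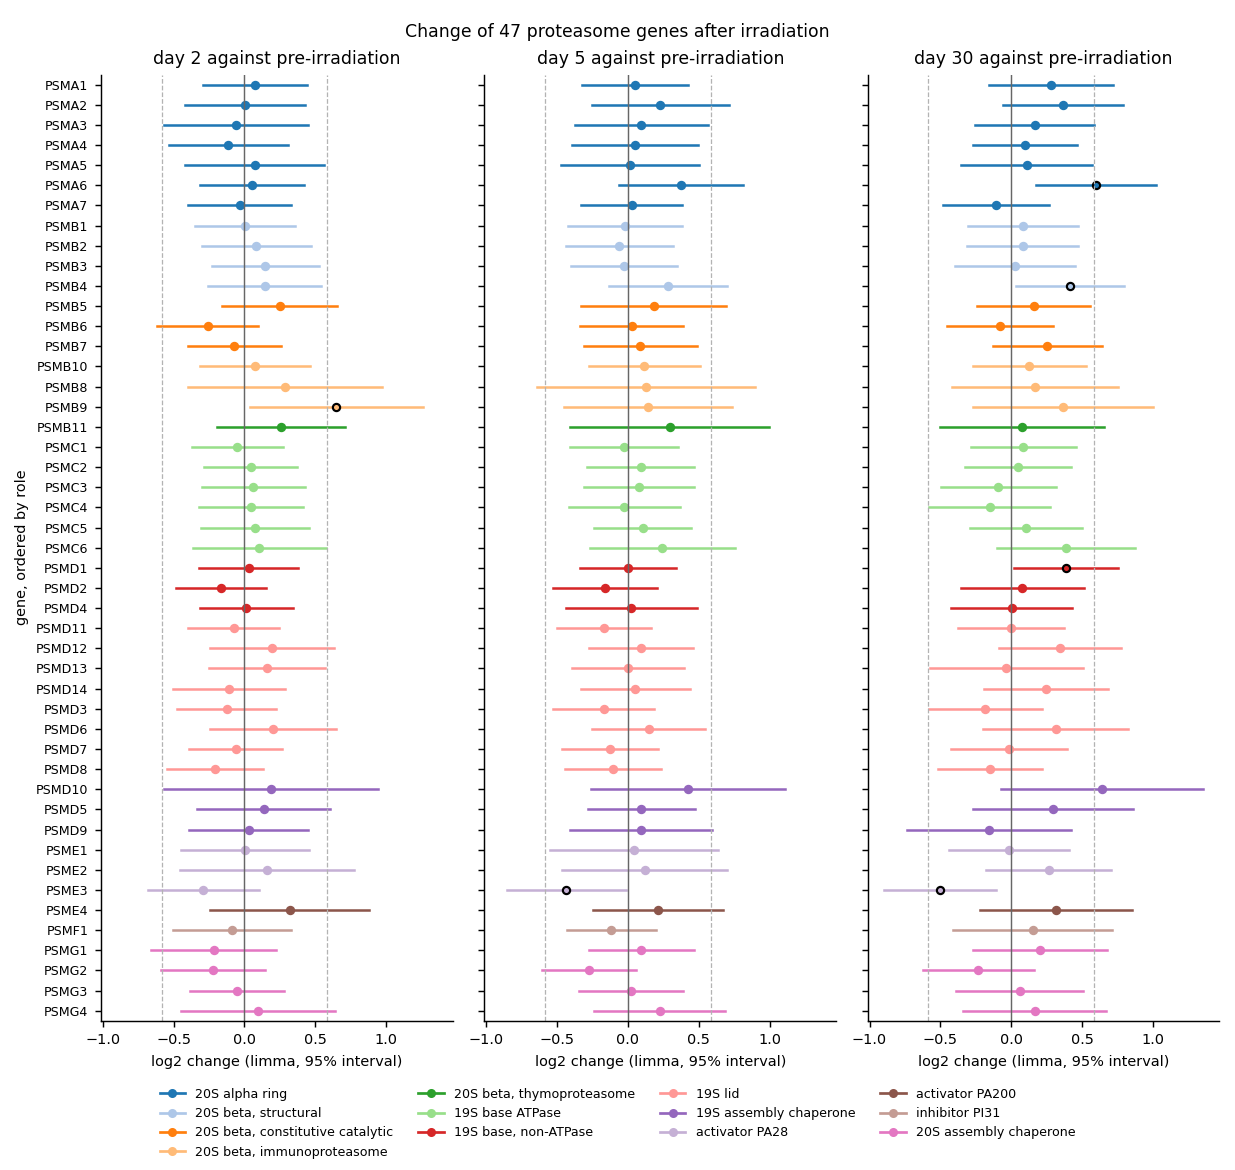
Log2 change of each of the 47 proteasome genes against pre-irradiation at days 2, 5 and 30, grouped by role; points are mean changes over 5 pairs and bars are 95% limma intervals, with dashed lines at a 1.5-fold change and a black outline at an unadjusted p under 0.05. Outlined points are 1 gene at day 2, 1 at day 5 and 4 at day 30, and nearly all bars cross 0.

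The alpha ring gates the core particle, and 1 of its 7 measured genes stood out at day 30. PSMA6, an alpha ring subunit, lay at 3.90, 4.00, 4.00, 3.82 and 3.81 before irradiation in replicates 1 to 5 and at 4.74, 4.28, 5.03, 4.09 and 4.40 at day 30. Every day 30 array was above every pre-irradiation array. The change was 0.60 on the log2 scale (1.52-fold, 95% interval 0.18 to 1.02), higher in 5 of 5 pairs, with an unadjusted p of 0.0112 and an adjusted p of 0.184 in limma. At day 5 PSMA6 lay at 3.97, 4.42, 3.84, 4.68 and 4.50, which overlapped the pre-irradiation arrays, and the change was 0.37 (−0.07 to 0.81). At day 2 it differed by 0.05 (−0.31 to 0.42). The other 6 genes of the ring ranged at day 30 from −0.11 for PSMA7 to 0.37 for PSMA2, and the median of the ring was 0.00, 0.05 and 0.16 at days 2, 5 and 30.

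Of the 4 structural beta subunits PSMB1 to PSMB4, which complete the inner rings without a catalytic site, PSMB4 had the largest change. It lay at 3.83, 3.75, 3.82, 3.59 and 3.60 before irradiation and at 4.20, 3.99, 4.19, 3.92 and 4.37 at day 30. These groups did not overlap. The change was 0.41 (0.03 to 0.79), higher in 5 of 5 pairs, with an unadjusted p of 0.0367 and an adjusted p of 0.255 in limma. Without replicate 2, 3, 4 or 5 the unadjusted p lay between 0.0620 and 0.125. The day 2 and day 5 changes of PSMB4 were 0.14 and 0.29, with intervals that held 0. PSMB1, PSMB2 and PSMB3 lay within −0.06 and 0.15 on every day.

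PSMB9, the immunoproteasome counterpart of PSMB6, had the largest change of all 47 genes at day 2. It lay at 5.46, 5.51, 6.27, 5.16 and 5.66 before irradiation and at 7.30, 5.41, 6.85, 5.71 and 6.02 at day 2. Replicates 1 and 3 were the highest day 2 arrays, replicate 2 was slightly below its own pre-irradiation array, and the groups overlapped. The change was 0.65 ± 0.26 (SE; 1.57-fold, 95% interval 0.04 to 1.26), higher in 4 of 5 pairs, with an unadjusted p of 0.0406 and an adjusted p of 0.316 in limma. Without replicate 1 the change was 0.35, with an unadjusted p of 0.0987, and normexp gave 0.09 (−0.32 to 0.50). Of all probes, 8.91% were higher at an unadjusted p under 0.05 at day 2. PSMB9 lay at 6.38, 5.46, 5.44, 5.81 and 5.68 at day 5 and at 6.84, 5.72, 5.58, 5.81 and 5.94 at day 30, and replicate 1 remained the highest array of each of these groups. The changes there were 0.14 (−0.45 to 0.73) and 0.37 (−0.27 to 1.0).

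The other immunoproteasome subunits varied widely before irradiation. PSMB8, which takes the place of PSMB5, lay at 2.07, 3.41, 3.89, 2.22 and 2.85 before irradiation and at 3.66, 3.48, 3.17, 2.50 and 3.05 at day 2. Its changes were 0.29 (−0.40 to 0.97), 0.13 (−0.64 to 0.90) and 0.17 (−0.42 to 0.76) at days 2, 5 and 30. All later arrays lay within the range of the pre-irradiation arrays. PSMB10, which takes the place of PSMB7, lay at 6.09, 5.42, 6.59, 5.45 and 5.58 before irradiation, at 6.35, 5.66, 6.10, 5.58 and 5.80 at day 2 and at 6.22, 5.70, 6.27, 5.62 and 5.95 at day 30. Replicates 1 and 3 were the highest in each of these groups. The changes of PSMB10 were 0.07 (−0.31 to 0.46), 0.12 (−0.28 to 0.51) and 0.13 (−0.27 to 0.53). With normexp the day 2 changes turned, to −0.23 for PSMB8 and to −0.48 for PSMB10, the latter outside its interval. The median over the 4991 brightest probes was −0.40 in that setting.

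The constitutive catalytic subunits differed in direction at day 2 with the scanner's background correction. PSMB6, with the caspase-like site, lay at 3.85, 3.83, 4.09, 3.75 and 3.54 before irradiation and at 3.30, 3.8, 3.68, 3.45 and 3.53 at day 2. PSMB6 was lower in 5 of 5 pairs at day 2, by the least in replicate 5, as were 7.43% of all probes in every pair, and the groups overlapped. The change of PSMB6 was −0.26 (−0.62 to 0.10), with an unadjusted p of 0.132, and it was 0.03 at day 5 and −0.08 at day 30. PSMB5, with the chymotrypsin-like site, lay at 2.88, 3.64, 3.46, 3.39 and 3.22 before irradiation and at 3.42, 3.43, 3.69, 3.41 and 3.88 at day 2. All but replicate 2 were higher at day 2, and the changes were 0.25 (−0.16 to 0.65), 0.18 (−0.33 to 0.69) and 0.16 (−0.24 to 0.56). PSMB7, with the trypsin-like site, lay at 4.74, 5.13, 4.81, 4.80 and 4.79 before irradiation and at 4.96, 5.10, 5.39, 4.99 and 5.09 at day 30, with replicate 2 standing above the other pre-irradiation arrays. The changes of PSMB7 were −0.07 (−0.40 to 0.26), 0.09 (−0.31 to 0.48) and 0.25 (−0.13 to 0.64). With normexp all 3 were lower at day 2 and lay outside these intervals, at −0.22 for PSMB5, −0.76 for PSMB6 (unadjusted p 0.0358) and −0.58 for PSMB7. The 4991 brightest probes also had a median of −0.40 at day 2 with normexp.

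The change of each immunoproteasome subunit was also set against that of its constitutive counterpart in the same pair of arrays, in 9 exact sign-flip tests over 3 pairs of subunits and 3 days. At day 2 the change of PSMB9 exceeded that of PSMB6 by 0.91 ± 0.93 (SD over 5 pairs), in 4 of 5 pairs, with a two-sided exact p of 0.125. The other 8 exact p-values lay between 0.375 and 1, and all 9 were 1 after Benjamini-Hochberg adjustment. With 5 pairs the smallest p possible is 0.0625, so that no test could reach 0.05. Both members of a subunit pair were read on the same array, and each difference compares changes, not levels of different probes.

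**Figure D2:**
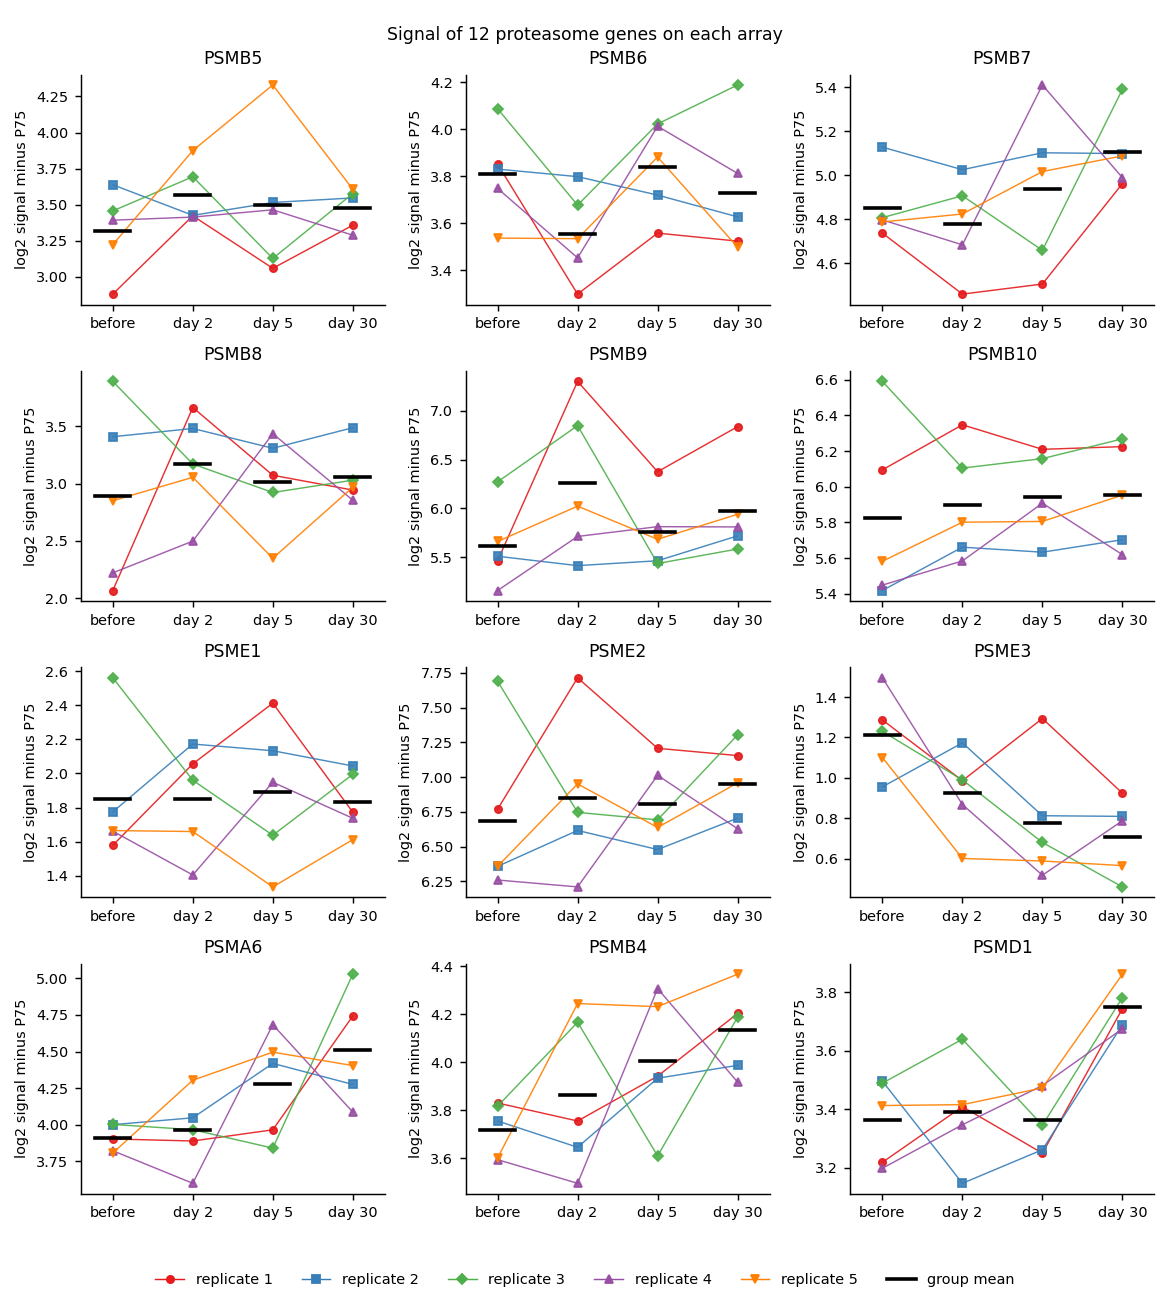
Log2 signal minus the array's 75th percentile (P75) of 12 proteasome genes on each of the 20 arrays, by group; lines join arrays of the same replicate number and black bars are group means. PSMA6, PSMB4 and PSMD1 lie higher on all day 30 arrays than on any pre-irradiation array, PSME3 lies lower, and PSMB9 at day 2 is led by replicates 1 and 3.

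PSMB11, the thymus form, was not well above background on the other 14 arrays, so its changes of 0.26, 0.29 and 0.08 compare mostly dim spots. The 6 ATPases of the regulatory base, PSMC1 to PSMC6, which unfold the substrate, had median changes of 0.05, 0.08 and 0.07. None of them reached an unadjusted p under 0.05, and the largest change was that of PSMC6 at day 30, at 0.39 (−0.10 to 0.87). The smallest at that day was that of PSMC4, at −0.15 (−0.58 to 0.27).

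PSMD1, the large scaffold subunit of the base, was the third gene that was higher at day 30 without overlap. It lay at 3.22, 3.50, 3.49, 3.20 and 3.41 before irradiation, at 3.41, 3.15, 3.64, 3.35 and 3.42 at day 2, at 3.25, 3.26, 3.35, 3.48 and 3.47 at day 5 and at 3.74, 3.69, 3.78, 3.68 and 3.86 at day 30. The day 30 arrays lay between 3.68 and 3.86, above every array of the other 3 groups. The change from pre-irradiation was 0.39 (1.31-fold, 0.02 to 0.75), higher in 5 of 5 pairs, with an unadjusted p of 0.0402 and an adjusted p of 0.261 in limma. Leaving out each replicate in turn gave unadjusted p-values between 0.0645 and 0.105 and kept the direction. A dimmer second probe of PSMD1 did not share this pattern: its change was −0.09 at day 30, and its r with the chosen probe over the 20 arrays was 0.15. PSMD2, the other scaffold, was lower in 5 of 5 pairs at day 2, with a change of −0.16 (−0.48 to 0.15). Of all probes, 7.43% were lower in every pair at that day. PSMD4, a ubiquitin receptor, had changes of 0.01, 0.03 and 0.00.

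The 8 lid genes had median changes of −0.07, −0.05 and −0.01, and none reached an unadjusted p under 0.05 against pre-irradiation. PSMD8, a lid subunit, was lower in 5 of 5 pairs at day 2, with a change of −0.21 (−0.54 to 0.13), and in 5 of 5 pairs at day 30, with −0.15 (−0.52 to 0.22). Of all probes, 7.43% were lower in every pair at day 2 and 9.51% at day 30. PSMD12, also of the lid, had the largest lid change at day 30, 0.35 (−0.09 to 0.78), and PSMD3 the lowest, −0.18 (−0.58 to 0.22). PSMD14, the deubiquitinase of the lid, differed by −0.11 at day 2 and by 0.24 at day 30, with intervals that held 0.

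Among the assembly chaperones of the regulatory particle, PSMD10 had the highest change of all 47 genes at days 5 and 30, though PSME3 differed by slightly more, downward, at day 5. PSMD10, also known as gankyrin, lay at 6.68, 5.77, 5.30, 5.05 and 6.70 before irradiation, at 6.60, 6.04, 6.71, 6.15 and 6.12 at day 5 and at 6.32, 6.99, 6.07, 6.78 and 6.55 at day 30. Replicates 2, 3 and 4 were higher at day 30 and replicates 1 and 5 were lower, and the groups overlapped. The change was 0.43 (−0.26 to 1.11) at day 5 and 0.64 (−0.07 to 1.36), with an unadjusted p of 0.0727, at day 30. Without replicate 3 the day 5 change was 0.18. The bright probe behind these values varied against the other 2 probes of the gene, with r of −0.48 and −0.51 over the 20 arrays. The brighter of those 2, which carries an NM accession, differed by −0.12 at day 5 and by 0.18 at day 30, so that the gene's place as the highest change depended on the probe. PSMD5 and PSMD9, the other chaperones, differed by 0.29 and −0.16 at day 30, with intervals that held 0.

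Of the activator genes, PSME3 forms a nuclear PA28 ring without PSME1 and PSME2 and is not known as interferon-inducible. Its change was the lowest of the 47 genes on each day. It lay at 1.29, 0.96, 1.23, 1.5 and 1.10 before irradiation, at 0.99, 1.17, 0.99, 0.87 and 0.60 at day 2, at 1.29, 0.81, 0.68, 0.52 and 0.59 at day 5 and at 0.92, 0.81, 0.46, 0.79 and 0.57 at day 30. Every day 30 array was below every pre-irradiation array, while the day 2 and day 5 groups overlapped with it. The change at day 30 was −0.50 (−0.90 to −0.11), lower in 5 of 5 pairs, with an unadjusted p of 0.0184 and an adjusted p of 0.209 in limma. The change at day 5 was −0.43 (−0.85 to −0.02), lower in 4 of 5 pairs, with an unadjusted p of 0.0435 and an adjusted p of 0.427 in limma. Without replicate 3, whose day 5 array had the largest share of spots above background, it was −0.41, with an unadjusted p of 0.103, and without replicate 4 it was −0.30 (0.133). At day 30 the p was 0.0650 without replicate 3 and 0.0629 without replicate 4. The day 2 change of PSME3 was −0.29 (−0.68 to 0.10). With normexp the changes were −0.41 (−0.84 to 0.02), −0.37 (−0.70 to −0.04) and −0.50 (−0.78 to −0.21) at days 2, 5 and 30. Of all probes, 4.15% were lower at an unadjusted p under 0.05 at day 5.

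At day 30, the groups did not overlap for 3 genes that were higher (PSMA6, PSMB4 and PSMD1) and for 1 that was lower (PSME3). Of all probes, 1.09% were higher and 0.992% lower without overlap, and 8.36% were higher and 9.51% lower in every pair. The same 4 genes had an unadjusted p under 0.05 in limma. Of all probes, 8.58% were higher and 8.97% lower at that level, larger shares than among the proteasome genes in either direction.

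The interferon-inducible PA28 genes had intervals that held 0 on every day. PSME2 lay at 6.77, 6.36, 7.69, 6.26 and 6.36 before irradiation, at 7.71, 6.62, 6.75, 6.21 and 6.95 at day 2 and at 7.15, 6.70, 7.30, 6.63 and 6.96 at day 30. Replicate 3 was the highest before irradiation and replicate 1 at day 2, so that the groups overlapped. The changes of PSME2 were 0.16 (−0.45 to 0.77), 0.12 (−0.46 to 0.70) and 0.26 (−0.18 to 0.70). PSME1 lay at 1.58, 1.77, 2.56, 1.66 and 1.66 before irradiation, where replicate 3 stood above the other 4 arrays, and its changes were 0.00 (−0.45 to 0.46), 0.05 (−0.55 to 0.64) and −0.02 (−0.44 to 0.41). With normexp the day 2 changes were −0.38 for PSME2 and −0.34 for PSME1, where the median of the 4991 brightest probes was −0.40. The probes of PSME1 and PSME2 lay 6025 bases apart on chromosome 14. PSME4, the activator PA200, had changes of 0.32, 0.21 and 0.32, and PSMF1, the inhibitor PI31, of −0.09, −0.12 and 0.15, all with intervals that held 0. A second PSME4 probe of nearly the same mean signal (204 against 208) had changes of −0.02, 0.01 and 0.29. Its r with the chosen probe over the 20 arrays was 0.05. PSMG1 to PSMG4, which assemble the core particle, had median changes of −0.14, 0.06 and 0.11, and the lowest of them was PSMG2 at day 5, at −0.27 (−0.60 to 0.06).

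Between the days, no proteasome gene was called in limma in any of the 3 comparisons, where 0% of all probes were called between days 5 and 2, 0.0551% between days 30 and 2 and 0% between days 30 and 5. At an unadjusted p under 0.05 there were 0 genes between days 5 and 2 (3.47% of all probes), 5 genes between days 30 and 2 (13%) and 1 gene between days 30 and 5 (8.31%). A paired t-test of each probe on its own also called 0 genes in each of the 6 comparisons. The share of all probes called by that test is not given here, so this count has no background beside it. The median changes were 0.01, 0.07 and 0.09, beside 0.03, 0.01 and −0.02 over all probes, and 2 of them turned, to −0.14 between days 5 and 2 with median scaling and to −0.05 between days 30 and 5 with normexp. Over the 4991 brightest probes the medians with the scanner's correction were −0.03, 0.05 and 0.08.

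All 5 genes between days 30 and 2 were higher at day 30 (10.6% of the 47, against 6.03% of all probes). With 1 replicate left out the count ran from 0 to 2, whichever replicate it was. With normexp it was 13, where the median of the 4991 brightest probes was 0.35. The share of all probes under these alternatives is not given here, so these counts have no background beside them. The 5 were named after their values were seen, and their smallest adjusted p was 0.359. PSMA6 differed by 0.55 (unadjusted p 0.0199), PSMD1 by 0.36 (0.0284), PSMD14 by 0.36 (0.0348), PSMA2 by 0.36 (0.0361) and PSMB7 by 0.33 (0.0452). A total of 8 genes (17.0%) were higher in every pair, against 7.61% of all probes. The 1 gene between days 30 and 5 was PSMD1, higher by 0.39 (unadjusted p 0.0418, adjusted p 0.595), where 2.53% of all probes were higher at that level.

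Before irradiation the genes differed in how much they varied between the 5 arrays. The median SD of the 47 genes was 0.255 log2 units (quartiles 0.192 and 0.382), below the 0.346 over all probes. PSMD11, a lid subunit, varied least, with an SD of 0.0730, and PSMB8 most, with 0.774. The median SD was 0.506 for the 3 immunoproteasome subunits and 0.199 for the 3 constitutive ones. PSME2 had an SD of 0.594 and PSME1 of 0.405. The 5 interferon-inducible genes PSMB8, PSMB9, PSMB10, PSME1 and PSME2 all lay above the upper quartile of the 47, the SD of PSME1 being led by replicate 3. So did the chaperones PSMD10 (0.764) and PSMD5 (0.523), PSMB11 (0.666), PSME4 (0.513) and PSMA5 (0.440), which are not known as interferon-inducible, among others.

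After each group's mean was removed, the genes of several roles varied together over the 20 arrays. These r values are descriptions over arrays that share animals and array quality, and no p is given. The mean r over the 1081 pairs of genes was 0.160, beside 0.008 over all probes, and 197 pairs had an r over 0.5. Within roles the mean r was 0.633 for the structural beta subunits, 0.449 for the alpha ring and 0.441 for the immunoproteasome subunits. It was 0.399 for the constitutive catalytic subunits, 0.395 for the assembly chaperones of the core particle, 0.378 for the ATPases and 0.364 for PA28. But it was 0.225 for the lid, 0.050 for the non-ATPase subunits of the base and −0.185 for the assembly chaperones of the regulatory particle. The highest pairs were PSMB10 with PSME2 (r = 0.894), PSMD14 with PSMG3 (0.887) and PSMC2 with PSMG2 (0.878). Next came the structural subunit PSMB2 with PSMB9 (0.873) and with PSME2 (0.870). PSMB8 had an r of only 0.352 with PSMB9 and 0.299 with PSMB10. PSMA2, of the alpha ring, had an r of 0.868 with both PSMA3 and PSMA6. The lowest pair was PSMB11 with PSMD3 (−0.716), and PSMB11 was mostly below background.

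**Figure D3:**
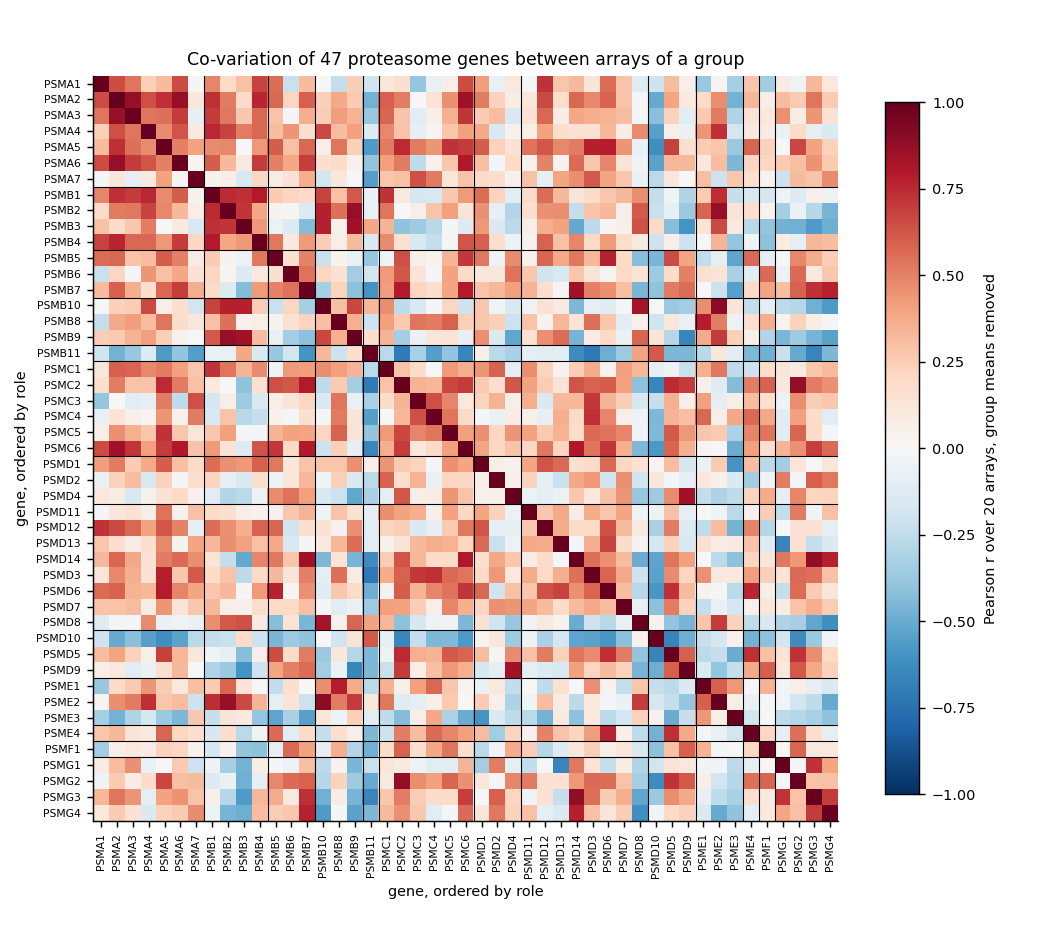
Pearson r of each pair of the 47 proteasome genes over the 20 arrays after each group's mean was removed, with the genes ordered by role on both axes. High values (red) gather within the alpha ring and the structural beta subunits. They also gather between the immunoproteasome subunits and both PSME2 and PSMB2, and the mean over all pairs is 0.160.

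Genes of the immunoproteasome and of PA28 were among those that varied most closely with the interferon response genes of an array. A list of 18 interferon response genes, which held no proteasome gene, was averaged on each array, and each proteasome gene was correlated with it over the 20 arrays after the group means were removed. The median r of the 47 genes was 0.05, and the range ran from −0.58 for PSMG4 to 0.88 for PSME2. By r, PSMB10 ranked 3 of the 47 (0.79), PSMB9 ranked 4 (0.66), PSME1 ranked 6 (0.59) and PSMB8 ranked 8 (0.50). Their constitutive counterparts PSMB5, PSMB6 and PSMB7 had r of −0.19, −0.06 and −0.31. PSMB2, a structural subunit that is not exchanged, also ranked high, at 0.79, as did the lid subunit PSMD8, at 0.59. PSMB3, another structural subunit, had an r of 0.51.

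Rank correlations and a smaller set of arrays gave similar values for some of these genes and lower ones for others. Spearman's rho was 0.79 for PSME2, 0.82 for PSMB10, 0.54 for PSMB9, 0.46 for PSME1 and 0.41 for PSMB8. Without the 2 arrays farthest from the median of the list, r was 0.82 for PSME2, 0.80 for PSMB10, 0.47 for PSMB9, 0.56 for PSME1 and 0.34 for PSMB8. In both checks PSMB2 and PSMD8 stood above PSMB9, PSME1 and PSMB8. Their rho was 0.62 and 0.66, and their r without the 2 arrays was 0.64 and 0.72. The same comparison with 15 genes of MHC class I antigen presentation put PSMB9 first (r = 0.90, rho 0.78, 0.86 without the 2 arrays farthest from that list's median), ahead of PSMB2 and PSMB3 (both 0.82), PSMB10 (0.81) and PSME2 (0.79). PSMB8 ranked only 15 with that list (r = 0.26, rho 0.14), and PSME1 had an r of 0.44, or 0.28 without the 2 farthest arrays. PSMB9 also varied with the neutrophil markers, at an r of 0.68 (rank 2, rho 0.72), or 0.54 without the 2 farthest arrays, as closely as with the interferon list. PSME3 had an r of only 0.19 with the interferon list.

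**Figure D4:**
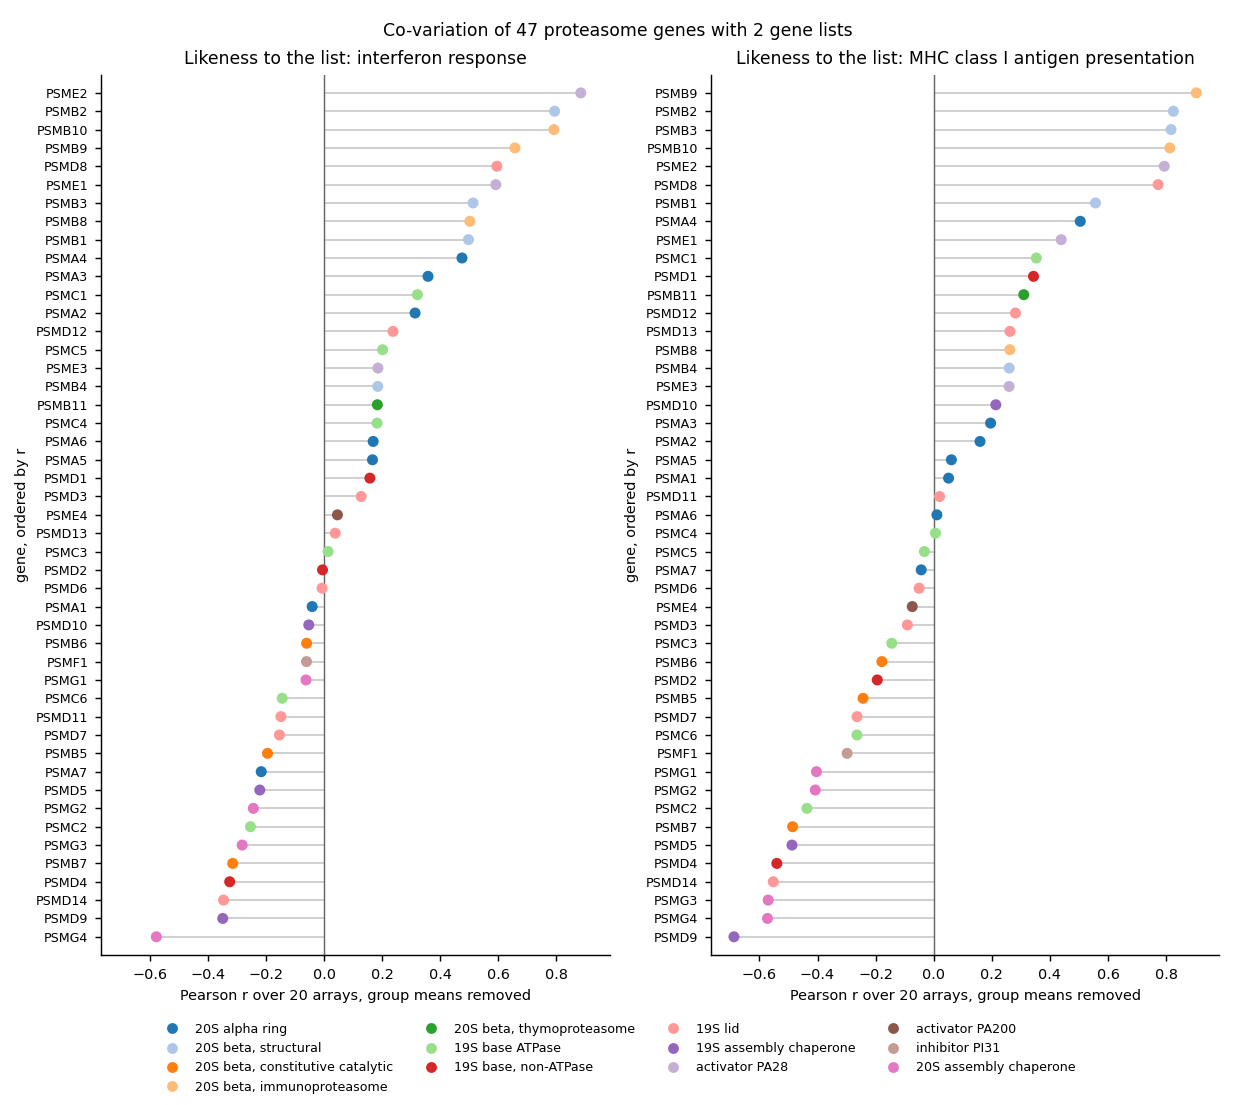
Pearson r of each of the 47 proteasome genes with the mean of 18 interferon response genes (left) and of 15 MHC class I antigen presentation genes (right), over 20 arrays after each group's mean was removed; genes are ordered by r and coloured by role. PSME2 (0.88) and PSMB10 (0.79) are near the top on the left and PSMB9 (0.90) is first on the right, while PSMB5, PSMB6 and PSMB7 lie below 0 on both sides.

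The lists had changes of their own. The interferon list had a median change of 1.13 at day 2, with 18 of 18 genes higher and 2 of them, IRF1 (0.47) and GBP1 (1.41), at an unadjusted p under 0.05 (11.1%, where 8.91% of all probes were higher at that level). Replicate 1 led it at day 2, with a median of 3.76 above the pre-irradiation mean, where the other 4 arrays lay between −1.01 and 1.12. PSMB8, PSMB9, PSMB10 and PSME2 were also at their highest day 2 level on that array. Of the MHC class I list, 3 of 15 genes were higher at day 2 at an unadjusted p under 0.05: the peptide transporter subunit TAP1 (0.40), the light chain B2M (0.54) and HLA-E (0.39). That was 20% of the list, against the 8.91% of all probes. The median of that list was 0.30, 0.07 and −0.02 at days 2, 5 and 30.

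Among 22 partner genes outside the PSM symbols, such as ubiquitin genes and ubiquitin receptors, the median change was −0.06, −0.01 and 0.02. POMP, which helps to assemble the core particle, was the 1 partner of 22 at an unadjusted p under 0.05 at day 30. Of all probes, 17.5% reached that level. The change of POMP was 0.73 (unadjusted p 0.0157, adjusted p 0.200 in limma). RPS27A, a ubiquitin fusion gene, was the 1 partner at day 5, at 0.47 (0.0497, adjusted p 0.440), against 11.4% of all probes. No partner reached that level at day 2, against 14.8% of all probes.

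Markers of blood cell types also differed between the groups, and their part in the values of the proteasome genes was not tested. The sum of the log2 levels of 14 T and NK cell markers lay between 40.1 and 44.9 before irradiation and between 28.4 and 36.4 at day 2. The sum over 8 platelet markers lay between 5.65 and 19.8 before and between 20.4 and 34.7 at day 2, with 8 of 8 higher at an unadjusted p under 0.05. For 8 neutrophil markers it lay between 10.5 and 26.6 before, between 16.8 and 34.2 at day 2 and between 15.8 and 41.5 at day 30. For 8 monocyte markers it lay between 21.4 and 31.9 before and between 30.2 and 35.4 at day 30. The sum over the 47 proteasome genes lay between 116.0 and 130.9 before irradiation, 118.8 and 128.7 at day 2, 119.5 and 133.6 at day 5 and 122.3 and 133.8 at day 30. With group means removed, single genes varied with these markers over the 20 arrays. The r with the erythroid markers was 0.86 for PSMD9, 0.76 for PSMF1 and 0.69 for PSMD4. The r with the neutrophil markers was 0.70 for PSMB3 and −0.59 for PSMF1, that of PSMB6 with the platelet markers was −0.64, and that of PSMD2 with the T and NK cell markers was 0.57.

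**Figure D5:**
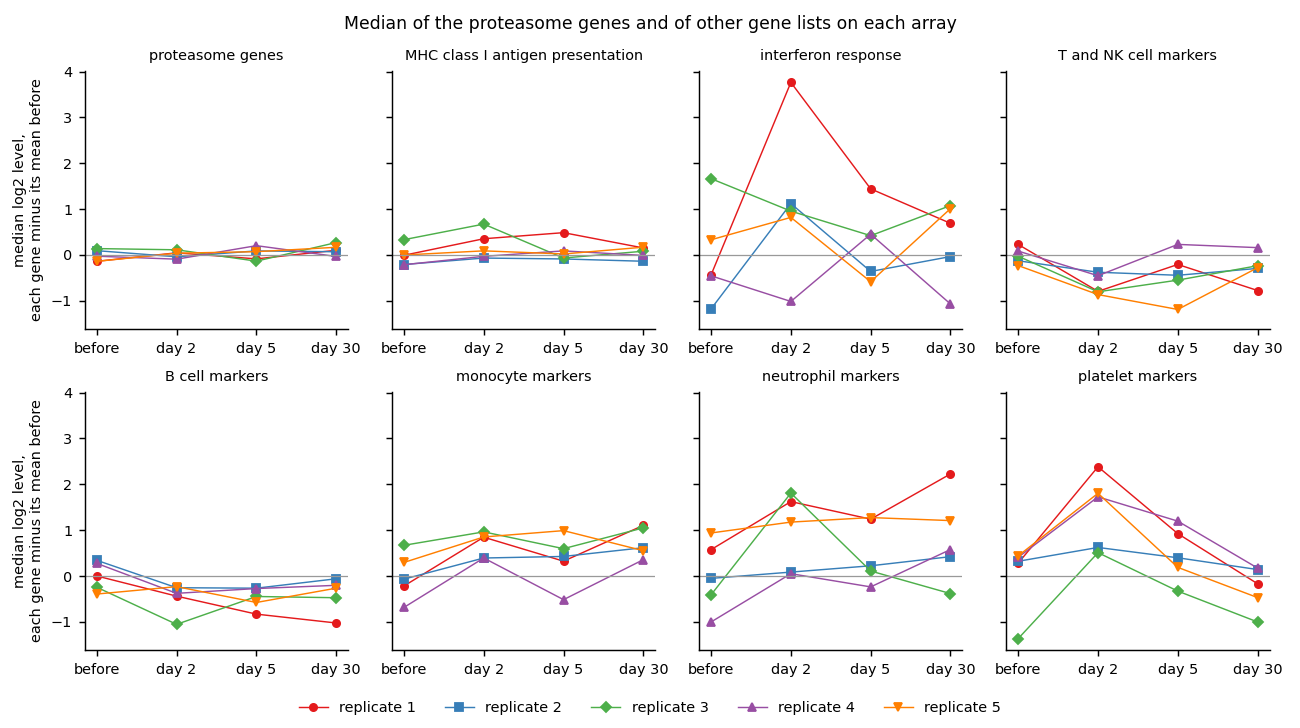
Median log2 level of the 47 proteasome genes and of 7 other gene lists on each of the 20 arrays, each gene relative to its mean before irradiation; lines join arrays of the same replicate number. The medians of the proteasome genes lie between −0.14 and 0.27. The interferon list reaches 3.76 in replicate 1 at day 2 and the T and NK cell and platelet markers shift in opposite directions at day 2.

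For 10 of the 47 genes there were 14 further probes that passed. Their changes had the opposite sign to the chosen probe in 6 cases at day 2, 8 at day 5 and 6 at day 30. PSMD2 was the gene with a further probe at an unadjusted p under 0.05, with changes of −0.53 at day 5 and −0.79 at day 30, where the chosen probe had −0.16 and 0.08, and the r between them was 0.12. For PSMB1 and PSMB2 the probes ran together, with r of 0.75 and 0.80.

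Of the 3 members that are no proteasome genes, PSMG3-AS1, an antisense transcript, was above background on 6 arrays. It lay at −4.17, −3.66, −4.28, −4.04 and −2.61 before irradiation and at −4.99, −4.06, −4.26, −4.56 and −4.77 at day 2, with groups that overlapped. No day 2 array was well above background, so that the level there is only a bound. The fitted difference was −0.78 (−1.46 to −0.09), with an unadjusted p of 0.0306 and an adjusted p of 0.292 in limma, but normexp background correction gave 0.29. PSMC3IP, a recombination factor, had changes of 0.02, 0.05 and 0.29, and PSMD5-AS1 of −0.18, −0.06 and −0.07, with intervals that held 0.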

How the data were processed

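The authors deposited the Agilent Feature Extraction output of 20 one-colour arrays, with a background-subtracted processed signal (an intensity), and a table of log2 values. The version is 10.7 in the submitters' processing notes and 12.0.2.2 in the file headers. In the deposited log2 table of 5884 probes, at least 99.47% of the values of an array equalled the log2 processed signal plus 1 constant within 0.001; it held 6 of the chosen probes and was used as an alternative.

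Here control spots and spots marked as outliers were left out, spots of a probe were averaged, and each array's 75th percentile was subtracted on the log2 scale. The 19961 of 34127 probes that at least 5 arrays measured well above background were fitted in limma 3.58.1 (R 4.3.3), each comparison with its own 10 arrays and the replicate number as a block, as the study's methods pair class comparisons. All adjusted p-values are Benjamini-Hochberg values over these 19961 probes. The fit was tested on simulated data. Tables and figures were made in Python 3.11.15 with pandas 2.3.3 and matplotlib 3.10.9.

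Arrays of the same number deviated together in 25 of 30 pairs (r over 0.1; median r 0.28, against −0.07 for other numbers), and 17 of 20 arrays correlated best with their own number. Named with values were the catalytic pairs, the PA28 genes, genes at an unadjusted p under 0.05 against pre-irradiation and the lowest and highest change per day; other genes were named to describe a role. The labels do not say which animal gave each sample, so p-values measure the spread between these samples. The number of arrays limits the precision. Members, gene lists and tests were chosen with earlier results of these data known. Alternatives were scaling by quantiles or by the median, normexp in place of the scanner's background correction (offset 50), keeping dim probes, requiring signal above background on all arrays, using the deposited log2 table, dropping the replicate block, blocking on the slide, fitting all arrays together, an intensity trend, a paired t-test, averaging a gene's probes, other thresholds and leaving out each replicate. Reading each gene from its brightest probe with an NM accession was added after the data were seen.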

Additional observations from a re-analysis of the deposited data

Results flagged for a closer look

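In the groups of 5 arrays, 4 of the 68 groups tested (16 named genes and the median of the proteasome genes) held 1 array that stood far from the other 4 by Dixon's test, and chance gives about 5% of groups. PSMB7 lay at 5.13 in pre-irradiation replicate 2, where the other 4 arrays lay between 4.74 and 4.81. PSME1 lay at 2.56 in pre-irradiation replicate 3, where the others lay between 1.58 and 1.77. At day 30, PSMB8 lay at 3.49 in replicate 2, with the others between 2.86 and 3.03, and PSMB9 at 6.84 in replicate 1, with the others between 5.58 and 5.94. No cause was tested for any of these.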

How the results depend on the processing

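No proteasome gene was called under any alternative run, except PSME3 at day 30 with normexp background correction (1 gene called). The share of all probes called with normexp is not given here. Counts at an unadjusted p under 0.05 moved more. They are given without the share of all probes under each alternative, so they show only how far the counts depend on the processing. At day 2 (1 gene) they were 0 with quantile normalization and with the slide as a block, 4 with normexp and between 0 and 2 when a replicate was left out. At day 5 (1 gene) they were 0 with quantile normalization, without a filter on dim probes and in the deposited log2 values, 2 with normexp and with the mean of a gene's probes, and 0 to 1 with a replicate left out. At day 30 (4 genes) they were 2 with quantile normalization, with normexp and without the filter, 0 among the 6 genes of the deposited log2 values, and 1 to 4 with a replicate left out. Between days 5 and 2 (0 genes) they were 1 with quantile normalization, 4 with normexp and 0 to 1 with a replicate left out. Between days 30 and 2 (5 genes) they were 13 with normexp, 0 in the deposited values, 3 with all arrays in 1 fit, 2 with the slide as a block and 0 to 2 with a replicate left out. Between days 30 and 5 (1 gene) they were 0 with quantile normalization, with normexp, in the deposited values and with the mean of a gene's probes, 2 with the paired t-test and 0 to 1 with a replicate left out.

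Without the replicate block, which ignores the pairing, the count at an unadjusted p under 0.05 was 0 at day 2 and 2 between days 30 and 2, and the block changed no call. The share of all probes in that fit is not given here.

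The median change with normexp was −0.37 at day 2, 0.44 between days 5 and 2 and 0.32 between days 30 and 2, and it was −0.031 between days 30 and 2 among the 6 genes of the deposited values. The 4991 brightest probes, which hold 33 of the 47 genes, had a median of −0.40 at day 2 with normexp and of 0.02 with the scanner's correction. With normexp their median was 0.39 between days 5 and 2 and 0.35 between days 30 and 2. With a replicate left out, the medians ran from −0.04 to 0.06 at day 2, −0.02 to 0.12 at day 5, 0.06 to 0.14 at day 30, −0.07 to 0.06 between days 5 and 2, 0.05 to 0.08 between days 30 and 2 and −0.01 to 0.19 between days 30 and 5. PSMG3-AS1 turned to 0.29 at day 2 and to −0.10 between days 30 and 2 with normexp. PSMA6 at day 30 stayed at an unadjusted p under 0.05 in every alternative run. The causes were not tested.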
